A study of Mus musculus with 4 samples.

Results

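The Hox genes of mouse lie in 4 clusters, Hoxa on chromosome 6, Hoxb on chromosome 11, Hoxc on chromosome 15 and Hoxd on chromosome 2, and each encodes a transcription factor with a homeodomain. They were taken as every gene probe named Hoxa, Hoxb, Hoxc or Hoxd followed by a number only, which gave 51 probes for 39 of the 29353 named genes on the array. Of these, 27 genes had 1 probe and 12 had 2, with 11 genes in Hoxa, 10 in Hoxb, 9 in Hoxc and 9 in Hoxd. Genes with the same number in different clusters, called paralogues, descend from one ancestral gene, and the number follows the order along the cluster. As background, low numbers act towards the head of the embryo and high numbers towards the tail and the limb ends, and stromal cells of an adult body can keep the Hox code of their position. In blood formation the genes of the Hoxa cluster and Hoxb4 are known from stem and progenitor cells, where Hoxa9 acts with its partner Meis1 and falls away as cells mature. Hox proteins bind DNA together with PBX and MEIS proteins of the TALE family.

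Gene expression was measured on 4 Agilent 1-colour arrays of cells sorted from bone marrow of C57BL6/J mice, with an age of 7 weeks in the labels. LSK cells, which lack mature lineage markers and carry Sca-1 and c-kit, include the stem cells of the blood and their early progeny. The second sort was of CD45-negative cells, which the labels call niche or stromal cells. Each sort was taken at day 10 from recipients that had received 700 cGy of radiation and 30000 LSK cells, and at day 0 from healthy mice, with 1 array for each of the 4 groups. The design text speaks of sorted donor stem cells without naming the day. Recipients carried the CD45.1 and donors the CD45.2 form of CD45, and the labels name the stromal sort both as CD45.1-negative and as CD45-negative, so whether donor blood cells were gated out is not certain. They give no sex and do not say whether animals were pooled. With 1 array per group no comparison has a replicate check or a test; genes past 2-fold were counted by size alone, and precision is limited by the number of arrays. All 4 arrays lay on 1 slide scanned on 1 day.

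Levels are log2 processed signals relative to the 75th percentile of the same array. Scaling by the spots of spike-in control RNA instead would add 2.78 to every log2 difference between day 10 and day 0 in CD45-negative cells, and 1.49 at day 0 and -1.41 at day 10 to every difference between LSK and CD45-negative cells, so directions there are relative to the bulk of each array. Within LSK cells it would add -0.11. The share of probes that the scanner software called well above background was 56.6% on the LSK array of day 10 and 54.6% on that of day 0, with 52.1% and 47.6% on the CD45-negative arrays. The lowest level it called above background was -4.12 and -3.95 on the LSK arrays and -4.24 and -3.15 on the CD45-negative arrays, so weak genes were hardest to see in CD45-negative cells at day 0. Of the stem and progenitor markers, 6 of 9 compared were at least 2-fold higher in LSK than in CD45-negative cells at day 10 and 7 of 8 at day 0, and 0 lower. Cd34 stood at 6.47 and 6.57 in LSK cells at day 10 and day 0, against 1.19 and 1.83 in CD45-negative cells. Ly6a, the gene of Sca-1, by which LSK cells are sorted, stood at 2.86 and 2.98 in LSK cells, against 3.44 and 0.20 in CD45-negative cells, so at day 10 it was not higher in LSK cells. Against the label of the second sort, the gene of CD45 was above background in it at both days. Ptprc, that gene, was at 4.25 and 4.18 in LSK cells at day 10 and day 0, against 5.58 and 3.10 in CD45-negative cells. Among the other marker lists, red cell markers had a summed level of 8.09 at day 10 and 10.78 at day 0 in CD45-negative cells, with 6 of 6 measured above background on both arrays. The summed level of mesenchymal stromal markers there was 3.78 at day 10, with 7 of 9 above background and Lepr and Pdgfra not, and 7.13 at day 0, with 9 of 9. For T and NK cell markers it was 6.66 at day 10, with 6 of 6 above background, and 2.25 at day 0, with 4 of 6 and Cd8a and Gzma not. For B and plasma cell markers it was 8.02 at day 10, with 8 of 8 above background, and 4.36 at day 0, with 6 of 8. For neutrophil and macrophage markers it was 9.02 at day 10 and 7.94 at day 0, with 6 of 6 at each day. In LSK cells at day 10 and day 0 the summed levels were 2.91 and 3.54 for red cell markers and 2.15 and 2.03 for mesenchymal markers. There they were 6.12 and 6.34 for T and NK cell markers and 4.51 and 7.72 for B and plasma cell markers. Neutrophil and macrophage markers had 7.37 and 6.08. These lists moved with every comparison that involves the CD45-negative sort, and their part in the Hox values was not tested. In such bulk samples fewer cells of a type and less RNA per cell cannot be told apart.

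The probes decide what could be read as a Hox transcript, since the homeobox, which encodes the DNA-binding homeodomain, is alike across the family. The longest run that the Hoxa9 probe shares with a probe of another gene is 22 of 60 bases, with the Hoxb3 probe. The other 49 Hox probes shared at most 12 to 16 bases in a row with a probe of any other gene. Hoxb3 was not above background on any array by either of its probes. Shared runs were sought among probes only, not among transcripts. Whether the Hoxa9 probe also reads other Hox transcripts was therefore not tested. Hoxc5, the 1 gene at least 2-fold higher at day 10 in LSK cells, and Hoxc4, read in both sorts, were read by probes that begin as follows, with 2 probes for Hoxc4 of which only the one given first was above background.
Hoxc5 probe, first 30 bases: gtgtgtgtctaagttacccagacttttcta
Hoxc4 detected probe, first 30 bases: ttctttccttctttagccttccttcccttt
Hoxc4 undetected probe, first 30 bases: ttttagtgttgatgtgaaatgccccgtgat
Hoxa3, Hoxa4 and Hoxd9 also had 1 probe above background and another that was not above background on any array. For these 4 genes the values below rest on the detected probe, and no level is set against that of another probe.

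Few Hox genes were detected, and most of those lay in the Hoxa cluster. Above background on at least 1 array were 15 of 39 Hox genes (38.5%), against 18907 of 29353 named genes (64.4%), and on all 4 arrays 6 Hox genes (15.4%), against 14260 named genes (48.6%). By cluster, 8 of 11 Hoxa genes were detected somewhere, 3 of 10 Hoxb, 2 of 9 Hoxc and 2 of 9 Hoxd. By position, paralogues 4 to 7 had 8 of 12 genes detected, paralogues 1 to 3 had 3 of 8, paralogues 8 to 10 had 3 of 10 and paralogues 11 to 13 had 1 of 9. The counts on single arrays were 15 in LSK cells at day 10 and 12 at day 0, and 7 in CD45-negative cells at each day. As shares these were 38.5% and 30.8% in LSK cells, against 59.5% and 58.1% of all named genes. In CD45-negative cells the share was 17.9% at each day, against 56.4% of all named genes at day 10 and 52.2% at day 0. No Hox gene was above background in a CD45-negative sample without also being so in an LSK sample. The matching count over all named genes was not taken, here or for the shared sets named below. With the scanner software's more permissive flag for a signal that is positive and significant, a setting chosen after seeing the data, the counts were 26 and 24 in LSK cells and 15 and 19 in CD45-negative cells. With a common level of -3.15 for all arrays, also chosen after seeing the data, the LSK counts did not differ between the days. The GC content of the 16 detected probes had a median of 39.1% and that of the 35 others 41.7%.

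**Figure D1:**
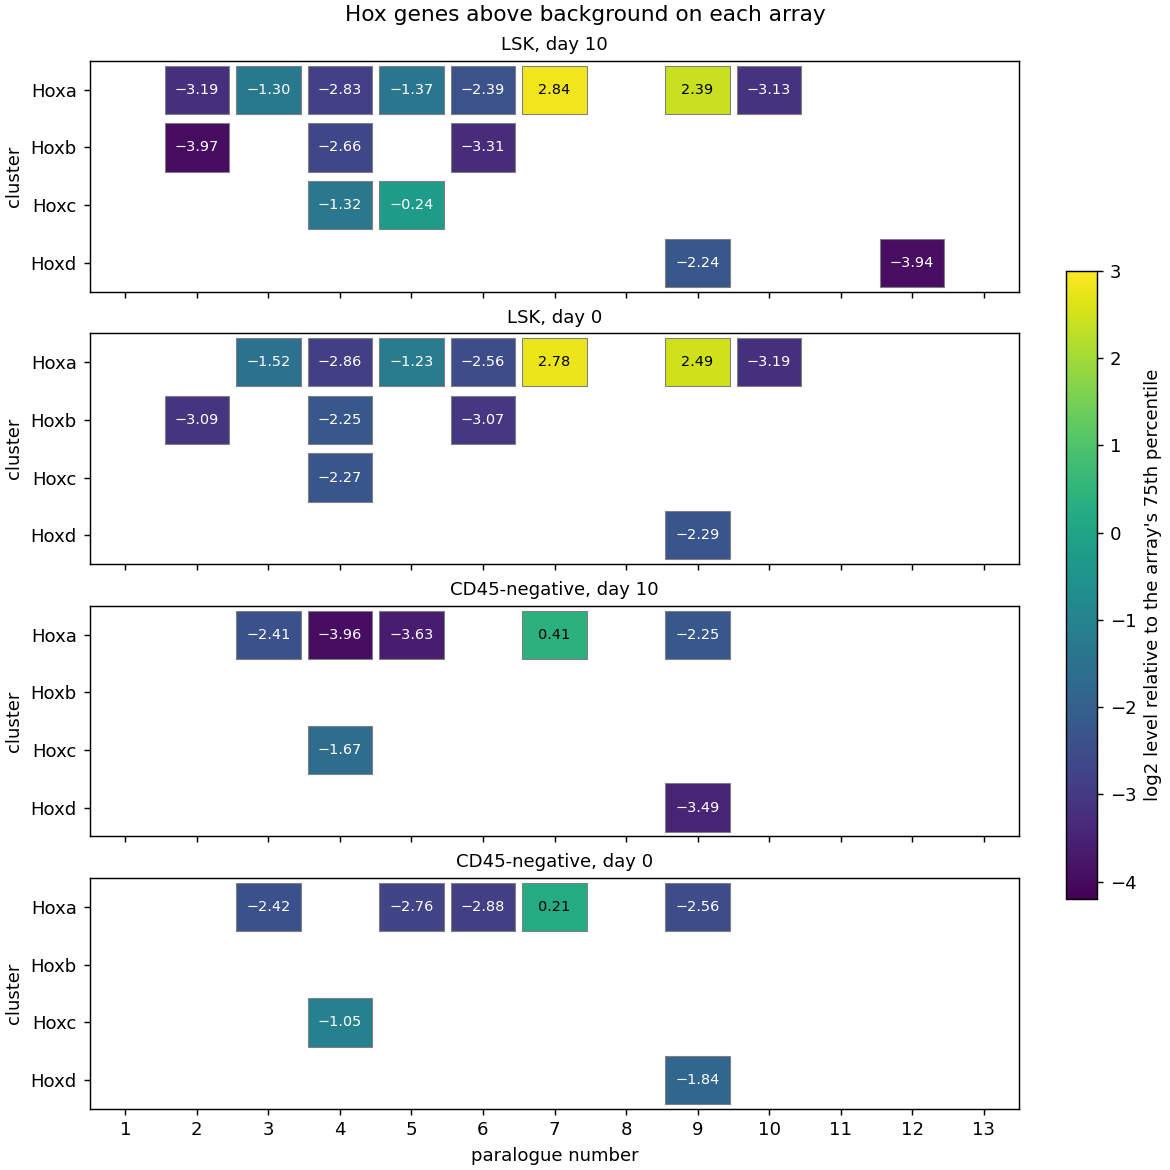
Each panel is 1 array, with the 4 clusters in rows and the paralogue number on the x axis. Coloured boxes give the log2 level relative to the array's 75th percentile, and blanks are genes not above background and paralogues the cluster does not hold. Detected genes gather at Hoxa3 to Hoxa10 in the LSK panels and thin out to 7 genes in each CD45-negative panel.

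The same 12 genes were above background in LSK cells at both days: Hoxa3, Hoxa4, Hoxa5, Hoxa6, Hoxa7, Hoxa9, Hoxa10, Hoxb2, Hoxb4, Hoxb6, Hoxc4 and Hoxd9. Of these, Hoxa10, Hoxb2, Hoxb4 and Hoxb6 were not above background in CD45-negative cells at either day. Hoxa3, Hoxa5, Hoxa7, Hoxa9, Hoxc4 and Hoxd9 were above it on every array. LSK cells at day 10 alone showed Hoxa2, Hoxc5 and Hoxd12. The other 24 genes were not above background on any array, among them Hoxa11 and Hoxa13; Hoxb1, Hoxb3, Hoxb5, Hoxb7, Hoxb8, Hoxb9 and Hoxb13; Hoxc6, Hoxc8, Hoxc9, Hoxc10, Hoxc11, Hoxc12 and Hoxc13; and Hoxd1, Hoxd3, Hoxd4, Hoxd8, Hoxd10, Hoxd11 and Hoxd13. For those the arrays give only that the signal was not well above background.

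Among the middle and later genes of the Hoxa cluster, a pair was bright in LSK cells. Hoxa9, a stem and progenitor cell factor and a known leukaemia gene, stood at 2.39 and 2.49 in LSK cells at day 10 and day 0, against -2.25 and -2.56 in CD45-negative cells. Its neighbour Hoxa7 stood at 2.84 and 2.78 in LSK cells and at 0.41 and 0.21 in CD45-negative cells. For both genes the 2 LSK values lay close together and clear of both CD45-negative values. Hoxa10, another factor of progenitor cells, was weak, at -3.13 and -3.19 in LSK cells, with both of its probes above background there and neither in CD45-negative cells. Hoxa5 had levels of -1.37 and -1.23 in LSK cells at day 10 and day 0, against -3.63 and -2.76 in CD45-negative cells. Hoxa6 had -2.39 and -2.56 in LSK cells, and in CD45-negative cells it was not above background at day 10 and stood at -2.88 at day 0. The LSK levels of Hoxa5 lay above both CD45-negative levels, whereas the day 0 levels of Hoxa6 in the 2 sorts lay near each other.

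The anterior genes of the cluster that were detected were Hoxa2, Hoxa3 and Hoxa4. Hoxa3, which as background patterns the third pharyngeal arch and the thymus, had levels of -1.30 and -1.52 in LSK cells at day 10 and day 0, against -2.41 and -2.42 in CD45-negative cells. Hoxa4 had -2.83 and -2.86 in LSK cells and -3.96 in CD45-negative cells at day 10, and in CD45-negative cells at day 0 it was not above background. On this scale both genes were higher on each LSK array than on either CD45-negative array, which at day 10 turned with the spike-in scaling and for Hoxa3 at day 0 with normexp correction, at -0.076. Hoxa2 was above background only in LSK cells at day 10, at -3.19. Its level at day 0 was -3.95, which was not called above background although it matched the lowest level so called on that array.

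In the Hoxb cluster, Hoxb4, known for expanding blood stem cells when overexpressed, stood at -2.66 in LSK cells at day 10 and -2.25 at day 0. Hoxb2 had -3.97 at day 10 and -3.09 at day 0, and Hoxb6 had -3.31 and -3.07. For all 3 the day 10 value lay below the day 0 value, and Hoxb2 at day 10 lay just over the detection limit. In the remaining clusters, Hoxc4, which is also known from lymphoid cells, had levels of -1.32 and -2.27 in LSK cells at day 10 and day 0, against -1.67 and -1.05 in CD45-negative cells. Its highest level was in CD45-negative cells at day 0 and its lowest in LSK cells at day 0. Hoxd9 had -2.24 and -2.29 in LSK cells and -3.49 and -1.84 in CD45-negative cells, so that the 2 CD45-negative values lay on either side of the LSK values. Hoxd12 was at -3.94 in LSK cells at day 10, just over the detection limit.

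**Figure D2:**
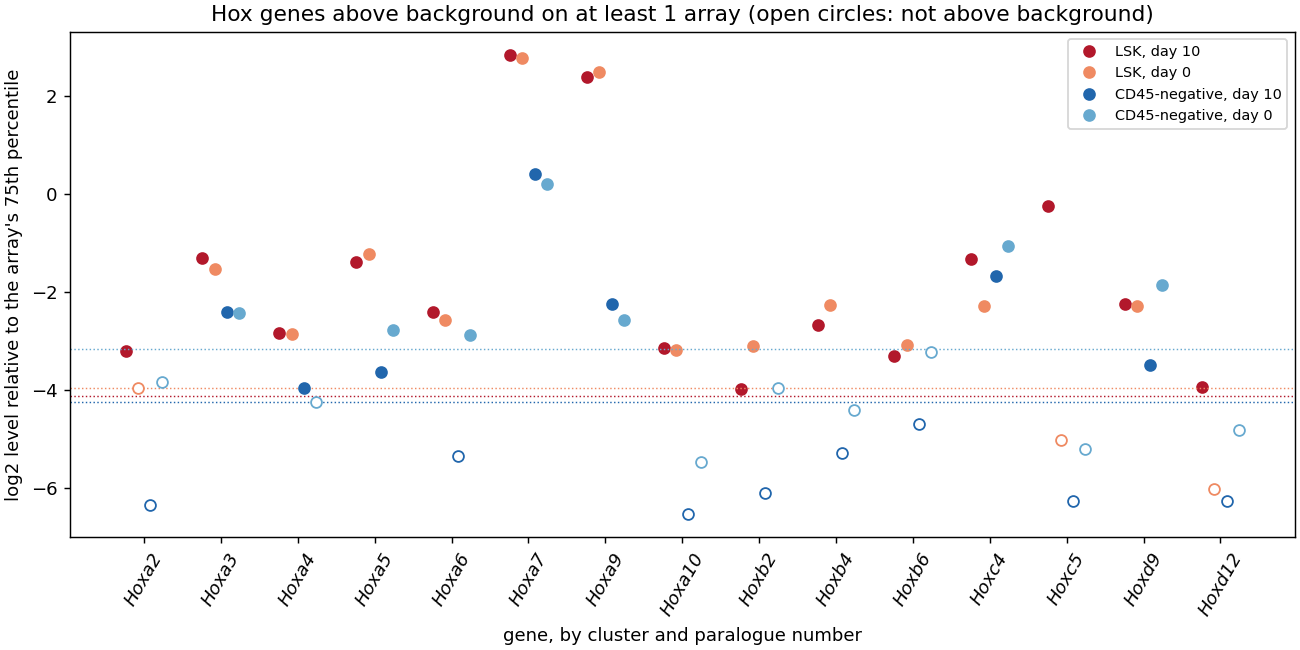
The 15 Hox genes above background on at least 1 array, in cluster order on the x axis, with the log2 level relative to the array's 75th percentile on the y axis and 1 point per array. Filled points were above background, open points were not, and dotted lines mark the lowest level called above background on each array. Hoxa7 and Hoxa9 lie above 2 on both LSK arrays, and Hoxc5 is filled only for LSK cells at day 10.

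The comparison of LSK with CD45-negative cells asks which Hox genes mark the blood stem and progenitor sort. At day 10, Hoxa9 was 24.8-fold higher in LSK cells, Hoxa7 5.4-fold, Hoxa5 4.76-fold, Hoxd9 2.38-fold, Hoxa4 2.19-fold and Hoxa3 2.16-fold, where the log2 differences of the last 3 became -0.16, -0.27 and -0.30 with the spike-in scaling. Genes seen only in the LSK array gave lower bounds, at least 16-fold for Hoxc5, 3.59-fold for Hoxa6, 2.98-fold for Hoxb4, 2.15-fold for Hoxa10 and 2.06-fold for Hoxa2. In all, 11 of the 15 genes compared were higher by the 2-fold rule and 0 lower, beside 12.9% higher and 12.8% lower among 18022 named genes. Of the 15, 8 entered as bounds because they were above background in LSK cells alone, so they could not have been lower, and of the 7 measured on both arrays 6 were at least 2-fold higher. The 4 genes below 2-fold were Hoxc4 at 1.27-fold and the bounds of Hoxb6, Hoxd12 and Hoxb2, at least 1.91-fold, 1.23-fold and 1.2-fold. Over the 7 genes measured on both arrays the median log2 difference was 1.25, against 0.01 over all named genes. The count of genes higher depended on the processing. It was 4 with normexp background correction, beside 5.99% of all named genes, and 6 with quantile normalization, beside 9.95%. A median shift gave 7, beside 9.77%. With the spike-in scaling 3 were higher and 1, Hoxc4 at -1.06, lower, beside 1.48% and 64.6% of all named genes.

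At day 0 fewer genes passed 2-fold, on an array whose detection limit was higher. Hoxa9 was 33.1-fold higher in LSK cells, a log2 difference of 5.05 with a scanner error of 0.30 for the 2 spots. Hoxa7 was 5.95-fold higher and Hoxa5 2.9-fold higher. Hoxc4 was 2.33-fold lower in LSK cells, a log2 difference of -1.22 that became 0.27 with the spike-in scaling. Of the 12 genes compared, 3 were at least 2-fold higher and 1 lower, beside 22.0% higher and 18.1% lower among 17626 named genes, so the shares were 25.0% and 8.33%. With the spike-in scaling 11 were higher and 0 lower, beside 70.5% and 5.02% of the named genes. Of the 12, 4 entered as bounds and 1, Hoxa10, without a bound, all above background in LSK cells alone. These could not have been lower with either scaling. With the main scaling the 3 higher and the 1 lower were among the 7 genes measured on both arrays. Hoxa3 differed by 0.91, Hoxa6 by 0.31 and Hoxd9 by -0.45 on the log2 scale, and each of these turned under an alternative, Hoxa3 to -0.076 and Hoxa6 to -0.32 with normexp correction and Hoxd9 to 1.04 with the spike-in scaling. Hoxb4 was at least 1.86-fold higher in LSK cells, Hoxa4 1.23-fold, Hoxb6 1.06-fold and Hoxb2 1.04-fold, while Hoxa10 gave no bound above 1. The median over the 7 measured genes was 0.91, against 0.08 over all named genes.

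Hoxa9 ranked 6 of the 15850 named genes measured on both arrays at day 10 and 8 of 14558 at day 0, counted from the largest excess in LSK cells. Hoxa7 ranked 171 at day 10 and 364 at day 0, and Hoxa5 ranked 220 and 1668. Over the other scalings and background corrections, without the spike-in scaling, the log2 difference of Hoxa9 ranged over 3.71 to 4.70 at day 10 and 3.16 to 5.15 at day 0, with the lowest value at each day under normexp correction. With the spike-in scaling it was 3.23 at day 10 and 6.54 at day 0. The difference of Hoxa7 ranged over 2.19 to 2.50 at day 10 and 2.35 to 2.67 at day 0, and with the spike-in scaling it was 1.03 and 4.06. For Hoxa5 the ranges were 1.09 to 2.32 at day 10 and 0.38 to 1.64 at day 0. Hoxa9 and Hoxa7 were thus at least 2-fold higher in LSK cells at both days under every one of these settings, whereas Hoxa5 was not.

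**Figure D3:**
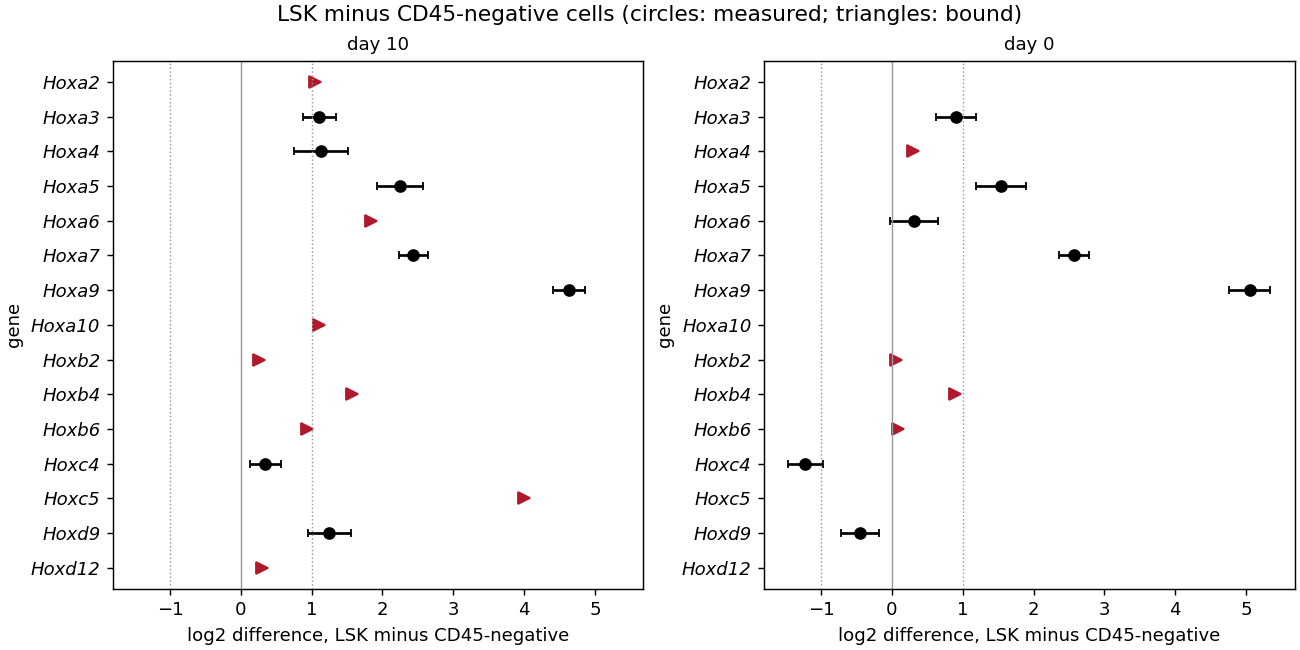
The x axis gives the log2 difference, LSK minus CD45-negative, for the genes on the y axis at day 10 (left) and day 0 (right). Circles are genes above background on both arrays, with the scanner software's error of the 2 spots, triangles are lower bounds, and dotted lines mark 2-fold. All 7 circles at day 10 lie above 0, and at day 0 Hoxc4 and Hoxd9 lie below it; with the spike-in scaling Hoxa3, Hoxa4, Hoxc4 and Hoxd9 at day 10 and Hoxc4 and Hoxd9 at day 0 change side.

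Within LSK cells the Hox levels at day 10 lay close to those at day 0. The 12 genes measured on both arrays had a median log2 difference of 0.04, against -0.01 over all named genes, and none differed by 2-fold. Hoxa9 differed by -0.10, Hoxa7 by 0.06, Hoxa5 by -0.15, Hoxa10 by 0.06 and Hoxa3 by 0.21. Each of these is within the scanner error of its 2 spots, which was 0.20 for Hoxa9 and 0.22 for Hoxa3, and the signs of all but Hoxa5 turned under at least 1 alternative. Hoxb2 was lowest, at -0.88 with a scanner error of 0.41, followed by Hoxb4 at -0.40 and Hoxb6 at -0.24. Hoxc4 was highest, at 0.95 with a scanner error of 0.23. With normexp correction Hoxb2 became -0.28 and Hoxc4 0.48. Of 50 probes with replicate spots, 29 to 34 per array were above background, with an SD between spots of 0.16 to 0.23. The 13 to 17 dim ones among them had an SD of 0.21 to 0.32. A difference between single dim spots therefore has an SD of up to 0.46.

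Hoxc5 was the 1 gene of the 15 compared that was at least 2-fold higher at day 10 in LSK cells, beside 1.8% among 17955 named genes. Another 0 were at least 2-fold lower, beside 3.54%. Of the 15, 3 entered as bounds because they were above background at day 10 alone, Hoxc5 among them, so they could not have been lower. As background, the human counterparts of Hoxc4, Hoxc5 and Hoxc6 can be transcribed from a shared promoter. The level of Hoxc5 was -0.24 at day 10, from a processed signal of 203 intensity units, against 6.13 units and a level not above background at day 0. The signal was 4.11 units in CD45-negative cells at day 10 and 3.16 units at day 0, neither above background. The bound was at least 13.1-fold against LSK cells at day 0. It rests on 1 probe with 1 spot, for which the scanner software gave a relative error of 16.6% and no outlier flag. That error was large for a spot of this brightness. On the same array the Hoxa5 probe had 10.6% at 92.2 units, and the dimmer Hoxa10 probe had 16.6% at 21.3 units. Whether the Hoxc5 spot was irregular was not tested. Hoxc6, the neighbour of Hoxc5, was not above background on any array. The 2 other genes detected in LSK cells at day 10 alone gave bounds of at least 1.69-fold for Hoxa2 and 1.01-fold for Hoxd12. Of the marker lists, 5 of 6 neutrophil and macrophage markers were at least 2-fold higher at day 10, with a summed level of 7.37 at day 10 and 6.08 at day 0, and 1 of 8 stem and progenitor markers compared was at least 2-fold lower. Of B and plasma cell markers 1 of 8 was higher and 3 lower, with summed levels of 4.51 at day 10 and 7.72 at day 0, and of T and NK cell markers 1 of 6 was higher and 3 lower. Their part in the Hox values was not tested.

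In CD45-negative cells 8 genes could be compared between the days, and 2 were at least 2-fold lower at day 10, or 0 with the spike-in scaling. Hoxd9 was 3.13-fold lower, a log2 difference of -1.65 with a scanner error of 0.32, and became 1.14 with the spike-in scaling. Hoxa6 was at least 2.57-fold lower, being not above background at day 10. No gene was at least 2-fold higher, or 7 with the spike-in scaling, beside 23.2% higher and 19.3% lower among 17187 named genes. With the spike-in scaling 88.5% of these named genes were higher. The remaining measured genes differed by -0.86 for Hoxa5, -0.62 for Hoxc4, 0.01 for Hoxa3, 0.20 for Hoxa7 and 0.31 for Hoxa9, where the differences of Hoxa5 and Hoxc4 also turned above 0 with the spike-in scaling, and those of Hoxa3 and Hoxa9 turned below 0 with normexp correction. Hoxa4 was above background at day 10 and gave no bound above 1. The median over the 6 measured genes was -0.30, against 0.19 over all named genes. In the same comparison 9 of 9 mesenchymal stromal markers were at least 2-fold lower at day 10, which became 0 of 9 with the spike-in scaling. With the main scaling 6 of 6 red cell markers were at least 2-fold lower. At least 2-fold higher were 6 of 6 T and NK cell markers and 8 of 8 B and plasma cell markers. Of 6 neutrophil and macrophage markers 3 were higher and 0 lower. Their part in the Hox differences was not tested.

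**Figure D4:**
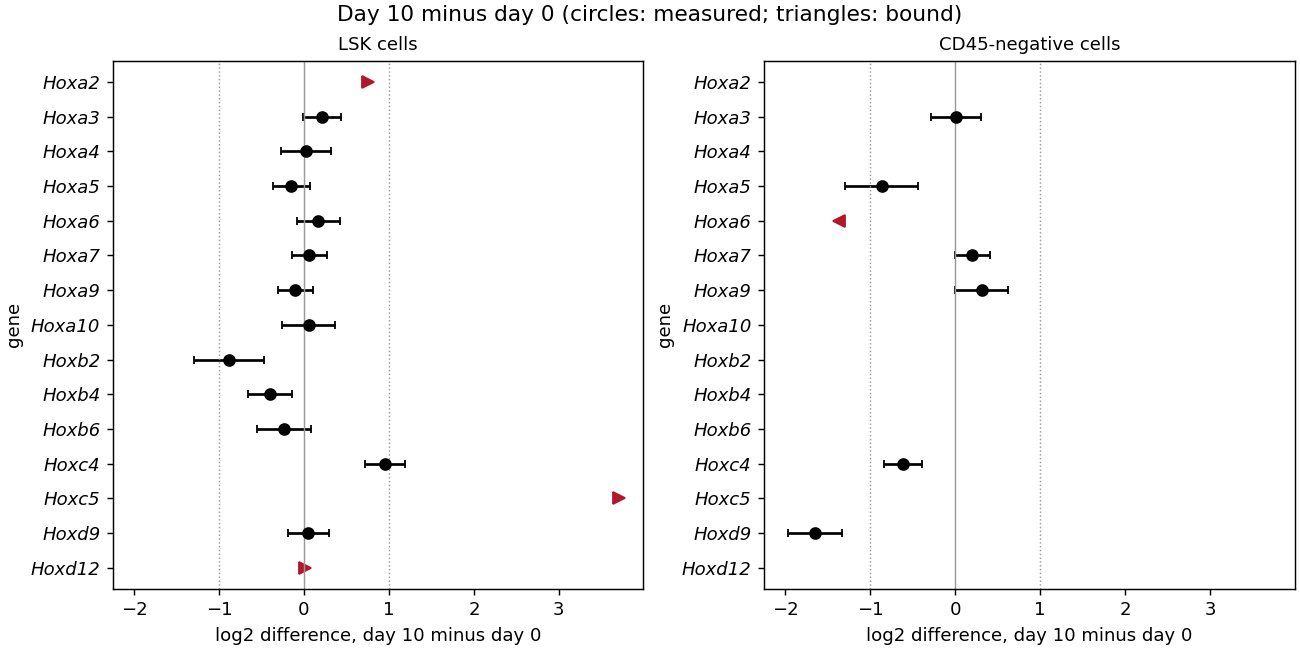
The x axis gives the log2 difference, day 10 minus day 0, for LSK cells (left) and CD45-negative cells (right). Circles are genes above background on both arrays with the scanner software's error of the 2 spots, triangles are bounds, and dotted lines mark 2-fold. In LSK cells the 12 circles lie between -0.88 and 0.95 and Hoxc5 stands apart as a bound; in CD45-negative cells Hoxd9 lies at -1.65, which turns to 1.14 with the spike-in scaling.

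The promoters of Hoxa9, Hoxa7 and Hoxa5, the genes of 1 cluster that were at least 2-fold higher in LSK cells at both days, are given with that of Hoxb4, detected in LSK cells alone. The RefSeq table of build GRCm38.p6 held 24 promoters of 22 Hox genes among 32851 promoters. The 250 bases before the start of each gene are printed 5′ to 3′ on the gene's strand, with motif matches in capitals.
Hoxa9, chr6:52227371-52227620, minus strand: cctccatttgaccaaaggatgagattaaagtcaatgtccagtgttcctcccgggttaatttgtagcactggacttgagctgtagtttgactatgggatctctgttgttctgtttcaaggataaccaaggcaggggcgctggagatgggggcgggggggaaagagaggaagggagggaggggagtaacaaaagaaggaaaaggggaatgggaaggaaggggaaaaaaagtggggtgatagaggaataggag
Hoxa7, chr6:52218574-52218823, minus strand: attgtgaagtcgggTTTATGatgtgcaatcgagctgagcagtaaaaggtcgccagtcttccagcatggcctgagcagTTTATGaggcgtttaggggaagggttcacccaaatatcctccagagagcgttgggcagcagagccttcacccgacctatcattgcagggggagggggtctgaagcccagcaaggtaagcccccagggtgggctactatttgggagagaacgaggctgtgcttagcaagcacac
Hoxa5, chr6:52204588-52204837, minus strand: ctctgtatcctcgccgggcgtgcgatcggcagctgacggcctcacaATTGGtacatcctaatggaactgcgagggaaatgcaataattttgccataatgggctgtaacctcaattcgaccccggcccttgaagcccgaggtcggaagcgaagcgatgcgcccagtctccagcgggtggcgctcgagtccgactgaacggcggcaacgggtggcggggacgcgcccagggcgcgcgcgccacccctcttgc
Hoxb4, chr11:96318017-96318266, plus strand: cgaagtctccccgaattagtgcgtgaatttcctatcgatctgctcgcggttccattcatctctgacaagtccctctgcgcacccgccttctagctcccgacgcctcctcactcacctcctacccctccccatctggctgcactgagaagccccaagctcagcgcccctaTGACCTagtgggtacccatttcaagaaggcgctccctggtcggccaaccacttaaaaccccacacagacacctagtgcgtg
The motifs searched on both strands were the TATA box TATAAA, the CCAAT box CCAAT, a HOX and PBX composite site TGATTNAT, a CDX core TTTATG, a retinoic acid receptor half-site AGGTCA and the CTCF core. Matches may overlap, as TTTATG and AGGTCA do in the Hoxd3 promoter. Hoxa7 held 2 CDX cores, Hoxa5 1 CCAAT box and Hoxb4 1 retinoic acid receptor half-site, while these letters did not occur in the Hoxa9 window. The CCAAT box occurred in 14 of 24 Hox promoters (58.3%), against 33.8% of all promoters of this length. The half-site occurred in 6 of 24 (25%), against 14%, and the CDX core in 5 of 24 (20.8%), against 10.8%. The TATA box was in 16.7% of Hox promoters and 12.4% of all, the composite site in 8.33% and 2.82%, and the CTCF core in 0 of 24 and 2.07% of all. The number of CpG dinucleotides had a median of 12.5 in Hox promoters and 6 in all, with 3 for Hoxa9, 7 for Hoxa7, 28 for Hoxa5 and 14 for Hoxb4. A match describes the letters only.

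Of the 9 TALE partners, 6 were above background in LSK cells at both days. Meis1, the partner of Hoxa9 in leukaemia, had levels of -0.64 and 0.47 in LSK cells at day 10 and day 0 and -3.15 in CD45-negative cells at day 10, and was not above background there at day 0. It was 5.71-fold higher in LSK cells at day 10 and at least 12.3-fold at day 0. Within LSK cells Meis1 was 2.15-fold lower at day 10, a log2 difference of -1.11, while its other probe gave -0.30 and Hoxa9 differed by -0.10. Among the PBX genes, whose proteins bind DNA with Hox proteins, Pbx4 was higher in LSK cells by 2.66 at day 10 and 2.47 at day 0. Pbx2 was higher by 0.26 at day 10, or -1.15 with the spike-in scaling, and by 1.62 at day 0. The other Pbx2 probe gave 1.07 at day 10. Pbx3 differed by -0.30 at day 10 and -1.79 at day 0. Of the 6 partners compared, 2 were at least 2-fold higher and 0 lower in LSK cells at day 10, beside 12.9% and 12.8% of all named genes. At day 0, 4 were higher and 1 lower, beside 22.0% and 18.1%. With the spike-in scaling the counts were 2 and 3 at day 10, beside 1.48% and 64.6%. They were then 4 and 0 at day 0, beside 70.5% and 5.02%. Meis2, Meis3 and Pknox2 were not above background on any array.

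Regulators of the clusters were compared between the days in LSK cells first. Of 16 activators and 18 Polycomb genes compared, 0 in each list differed by 2-fold there. Among all named genes 1.8% were higher and 3.54% lower, so lists of this size would hold few such genes. Kmt2a, the Trithorax-group methyltransferase that keeps Hoxa genes active, stood at 3.41 and 3.47 in LSK cells at day 10 and day 0, against 3.60 and 2.75 in CD45-negative cells. Cdx1, Cdx2 and Cdx4, which drive Hox genes in the embryo, were not above background on any array. Bmi1, a Polycomb gene that stem cells need to renew themselves, had 0.22 and -0.05 in LSK cells at day 10 and day 0, against 0.68 and -1.35 in CD45-negative cells. Its other probe, also above background on every array, had 0.04 and 0.13 in LSK cells, against -1.37 and -2.37 in CD45-negative cells. The probes thus disagreed between the sorts at day 10, with log2 differences of -0.45 and 1.41. In CD45-negative cells 6 of 16 Polycomb genes were at least 2-fold higher at day 10 and 0 lower, or 16 of 16 higher with the spike-in scaling, beside 23.2% higher and 19.3% lower among all named genes, or 88.5% higher with the spike-in scaling. Among these Polycomb differences were 2.02 for Bmi1, or 1.01 by its other probe, and 2.01 for Phc1.

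Retinoic acid, a known inducer of Hox genes, was represented by 17 pathway genes. Aldh1a1, which makes it, had 0.56 and 1.40 in LSK cells at day 10 and day 0, against 1.71 and 5.93 in CD45-negative cells. Of the 8 pathway genes compared between the days in LSK cells, 2 were at least 2-fold lower at day 10, beside 3.54% of all named genes. Of these 2, Stra6, the receptor for retinol-binding protein, had a log2 difference of -1.75.

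Genes just outside the clusters were counted in the same way. Of 12 compared at each day, LSK cells against CD45-negative cells gave 1 higher and 3 lower at day 10, beside 12.9% and 12.8% of all named genes. At day 0 the comparison gave 2 higher and 1 lower, beside 22.0% and 18.1%. With the spike-in scaling the counts were 0 and 10 at day 10, beside 1.48% and 64.6%. They were then 9 and 0 at day 0, beside 70.5% and 5.02%. Skap1, a T cell adaptor beside the Hoxb cluster, differed by -2.30 at day 10, where 5 of 6 T and NK cell markers were at least 2-fold lower in LSK cells. At day 0 Skap1 was at least 13.3-fold higher in LSK cells, where 5 of 6 of those markers were at least 2-fold higher. The part of T and NK cells in the Skap1 values was not tested. Of 15 noncoding RNAs of the clusters, 3 were named on the array. Hoxaas3, an antisense transcript in the Hoxa cluster, was weakly above background at day 10 in both sorts, at -3.85 in LSK cells and -3.54 in CD45-negative cells.

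**Figure D5:**
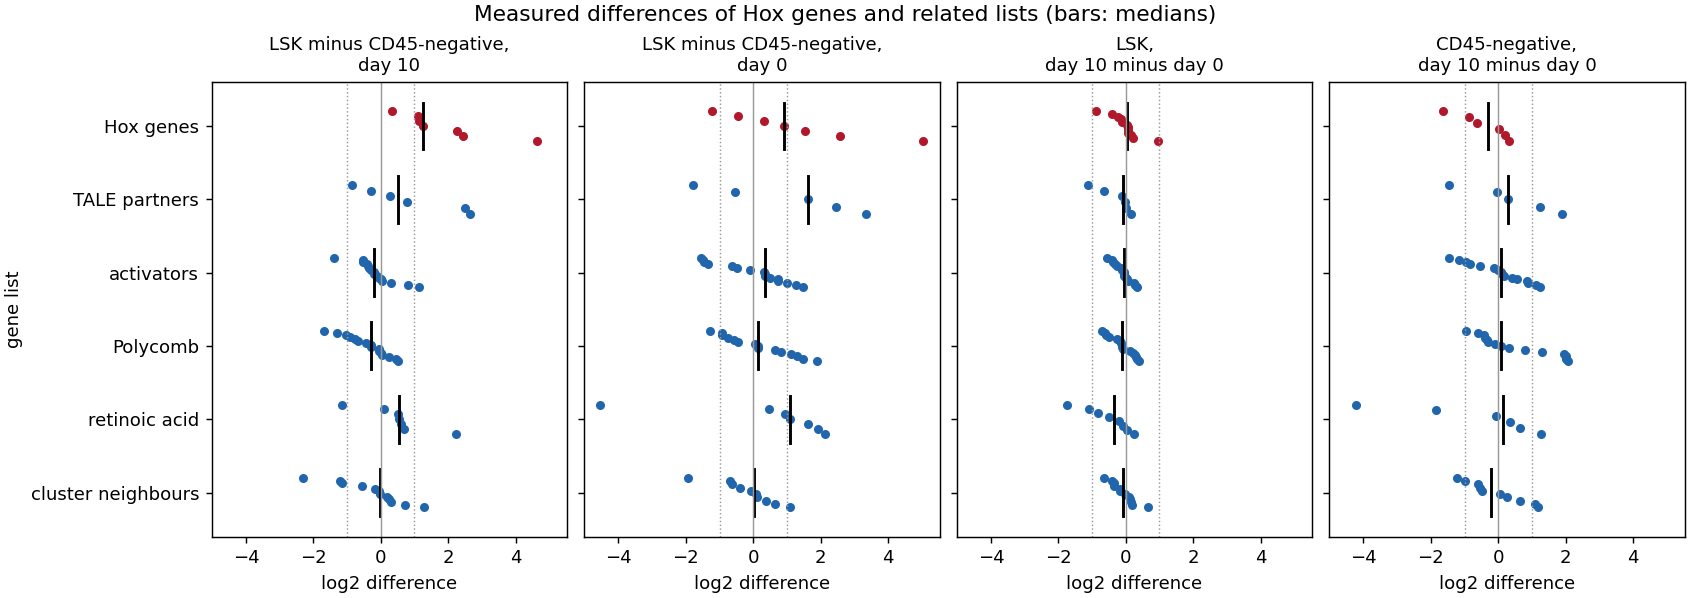
Each panel is 1 comparison, with the log2 difference on the x axis, gene lists in rows, 1 point per gene measured on both arrays and black bars for medians. The Hox row has a median of 1.25 for LSK minus CD45-negative cells at day 10 and 0.91 at day 0, and 0.04 between the days in LSK cells; with the spike-in scaling the first becomes -0.16.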

How the data were processed

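Expression was measured on 4 Agilent 1-colour arrays, 1 for each group, from 500 ng of total RNA labelled with Cy3, per the labels. Per the file headers, the scans were processed with Agilent Feature Extraction 10.5.1.1, and the deposited spot signals are fluorescence intensity values, as raw means with local background and as processed signals with background subtracted, with an error for each. The deposited detection, saturation and outlier flags and the control type are of another kind, neither signal nor ratio. In the deposited series table the values are log2, and for at least 99.977% of probes they equal the authors' log2 processed signal minus 1 constant per array, within 0.001.

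Outlier-flagged spots were left out, replicate spots were averaged as log2 processed signals, and from each array its 75th percentile over 61307 probes that are not controls was taken off. Of a gene's probes, the one brightest on average over the arrays stood for it. Where a gene was above background on 1 of the 2 arrays, its fold was bounded against the lowest level called above background on the other. Symbols were updated through RefSeq accessions of build GRCm38.p6, which matched 28136 of 40628 probes; the array's design used build mm9 per the file headers, and no mm9 coordinates are given. No test was run, since each group had 1 array. The alternatives used normexp correction (limma 3.58.1 under R 4.3.3, offset 50), quantile normalization, other shifts, the deposited table, the mean of probes, and other detection rules; 2 detection rules were chosen after seeing the data. The bounds and counts were tried on simulated arrays, all built from the LSK array of day 0 with the same detection limit. This does not cover the unequal detection limits of the real arrays. Hox members, partner and regulator lists and markers were chosen with earlier results of these data known. Members above background on at least 1 array were named with values, and of each other list at most 5 genes with the largest measured differences, with Meis1, Kmt2a and Bmi1 always. Some genes and sequences that this rule would name are not reported here.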

Additional observations from a re-analysis of the deposited data

Results flagged for a closer look

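Hoxc4 moved in opposite directions in the 2 sorts. Between day 10 and day 0 its log2 difference was 0.95 in LSK cells and -0.62 in CD45-negative cells, and these lie 1.56 apart. The difference was not tested, since each group had 1 array. With the spike-in scaling both were above 0, at 0.84 in LSK cells and 2.17 in CD45-negative cells. Over the settings without it the LSK difference ranged over 0.40 to 1.04 and the CD45-negative difference over -0.89 to -0.49. A difference between single dim spots has an SD of up to 0.46. Hoxc4 was read by 1 of its 2 probes, and the other was not above background on any array.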

How the results depend on the processing

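Of the counts and medians over the Hox genes under an alternative, 81 stayed within 1.5 times the count or within 0.46 of the median, and 35 did not. Of the medians, 8 changed sign, 4 of them the small median between the days in LSK cells. With normexp correction, LSK against CD45-negative cells gave 4 genes higher with a median of 0.73 at day 10, and 0 genes lower with a median of -0.076 at day 0. Quantile normalization gave 2 genes higher in LSK cells at day 10 against day 0, 1 gene lower in CD45-negative cells at day 10, and 6 genes higher in LSK against CD45-negative cells at day 10. A median shift gave 7 for the last count. With the spike-in scaling, CD45-negative cells had 7 genes higher, 0 lower and a median of 2.48 between the days. LSK against CD45-negative cells then had 3 higher, 1 lower and a median of -0.16 at day 10. At day 0 there were 11 higher, 0 lower and a median of 2.40. Of all named genes 1.48% were then higher and 64.6% lower at day 10, and 70.5% and 5.02% at day 0. Single genes that changed direction with it included Hoxa5 (1.92), Hoxc4 (2.17) and Hoxd9 (1.14) between the days in CD45-negative cells, Hoxa3 (-0.30), Hoxa4 (-0.27), Hoxc4 (-1.06) and Hoxd9 (-0.16) between the sorts at day 10, and Hoxc4 (0.27) and Hoxd9 (1.04) at day 0. Between the days in LSK cells the small differences of Hoxa4, Hoxa7, Hoxa10 and Hoxd9 also changed sign. The spike-in scaling moved the share of higher calls among all genes called to 98.2% between the days in CD45-negative cells, against 54.6% with the main scaling. Between the sorts it moved that share to 2.23% at day 10, against 50%, and to 93.4% at day 0, against 54.8%. Within LSK cells it was 23.2%, against 33.7%. A median shift put it at 37.4% between the sorts at day 10. The cause of these shifts was not tested. Without a detection filter, LSK cells had 3 genes higher and 4 lower between the days, and CD45-negative cells 24 lower with a median of -1.06. Between the sorts it gave 18 higher and 2 lower at day 10, and 8 higher and 6 lower with a median of -0.43 at day 0. Without bounds, which leaves fewer genes, 0 genes were higher between the days in LSK cells, 1 lower in CD45-negative cells and 6 higher between the sorts at day 10. With bounds in the median, the day 0 median between the sorts was 0.31. Among detection rules chosen after seeing the data, the positive and significant flag gave 26 Hox genes in LSK cells at day 10 and 24 at day 0. It gave 15 and 19 in CD45-negative cells. A common level of -3.15 for all arrays gave 4 in CD45-negative cells at day 10. Under it the LSK count was no longer larger at day 10. There Hoxa2 (-3.19), Hoxb2 (-3.97), Hoxb6 (-3.31) and Hoxd12 (-3.94) fell below that level at day 10, and Hoxa10 (-3.19) at day 0. Of the single-gene differences, 186 moved by less than 0.46, the SD of a difference between 2 dim spots, and 38 by more or with a turn of a larger difference. In all 25 of 224 changed sign, 13 with the spike-in scaling, 9 with normexp correction and 3 with the mean of probes. Signal over background limits the weak genes most in CD45-negative cells at day 0, and 24 of 39 Hox genes were not well above background on any array. No paired analysis was possible because each group has 1 array.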
